A study of Mus musculus with 20 samples.

Results

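The genes described here are glutathione transferases, UDP-glucuronosyltransferases and sulfotransferases of the mouse. They were taken as every protein-coding gene whose symbol carries the family stem (Gst, Ugt or Sult) followed by its class letter and number. The rule found 64 genes among the 48440 of the count table: 22 glutathione transferases (GSTs), 21 glucuronosyltransferases (UGTs) and 21 sulfotransferases (SULTs). The samples are bulk RNA libraries of gonadal fat and of liver, taken from wild-type (WT) mice and from mice with the genotype AdEpsKO, which the title of the series calls deficient in protein kinase C epsilon (PKCε, gene Prkce). AdEpsKO animals are referred to as KO. What the letters of that genotype stand for is not given in the labels, and neither are the cells or organs that lost Prkce, so the KO is described by its label alone. All 4 groups, WT fat, KO fat, WT liver and KO liver, share the C57BL/6 strain background, 1 week of high fat diet and 6 h without food before collection, and age and sex are not given. Each group holds 5 libraries, numbered 1 to 5 as in the sample titles, and p-values measure the spread between these libraries.

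These enzymes carry out the conjugation step of detoxification, in which a water-soluble group is joined to a drug, hormone, bile acid or reactive metabolite so that it can be exported in bile or urine. GSTs attach glutathione to electrophiles such as the aldehydes formed from oxidised lipids. UGTs transfer a sugar, usually glucuronic acid from UDP-glucuronic acid, to substrates such as bilirubin, steroids and phenols, and SULTs transfer sulfate from the donor PAPS to phenols, steroids and bile acids. The liver is the main organ of conjugation, and hepatocytes are known for high levels of these enzymes.

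Total expected counts ran from 12880933 to 17276907 per fat library and from 13836370 to 20784145 per liver library. Levels are given in CPM, the count of a gene divided by the library size, on sizes scaled by TMM over all 20 libraries, and in CPM per kilobase of transcript where genes are compared with each other. Prkce held 25.8 to 48.2 CPM in WT fat and 16.1 to 25.5 CPM in KO fat, without overlap (2-sided exact permutation p = 0.00794, the smallest that 5 against 5 can give), but its ratio of 0.615 was not called over all genes (adjusted p = 0.687, edgeR). In liver Prkce held 14.7 to 27.4 CPM in WT and 12.0 to 19.97 CPM in KO, with overlap (exact permutation p = 0.135). The labelled tissues showed their defining markers: the sum of 8 hepatocyte genes was at least 147729 CPM in each liver library and at most 458 CPM in fat, and the sum of 8 adipocyte genes was at least 9233 CPM in each fat library and at most 168 CPM in liver. Some libraries stood apart. KO fat 2 held 277 CPM of Upk3a, a urothelial gene at 0.639 CPM or less in the other 9 fat libraries. WT fat 4 and KO fat 3 held 337 and 300.0 CPM of Alb, the gene of serum albumin, against 9.45 to 53.0 CPM in the other fat libraries. WT liver 4 and WT liver 2 held the most Acta1, a skeletal muscle gene, at 107 and 58.2 CPM.

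A gene's level is less certain where its transcript shares sequence with another. The clearest case is the Ugt1a locus, chr1:88055388-88220002 (GRCm38). There each of the 9 members has a transcript with a first exon of its own, and all are spliced to the same downstream exons. The sequences below join the last 30 bases of the first exon, in capitals, to the first 30 bases of the shared second exon at chr1:88215044-88215073, plus strand, in lower case, and show where the members differ and where they do not. The capitals lie at chr1:88212842-88212871 for Ugt1a1, chr1:88166874-88166903 for Ugt1a5, chr1:88139302-88139331 for Ugt1a6a, chr1:88107770-88107799 for Ugt1a6b, chr1:88095949-88095978 for Ugt1a7c and chr1:88071649-88071678 for Ugt1a9.
Ugt1a1: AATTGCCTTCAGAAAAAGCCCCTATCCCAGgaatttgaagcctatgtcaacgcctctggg
Ugt1a5: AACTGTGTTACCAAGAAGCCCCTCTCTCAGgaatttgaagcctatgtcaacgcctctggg
Ugt1a6a: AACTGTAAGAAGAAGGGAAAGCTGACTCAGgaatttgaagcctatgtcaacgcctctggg
Ugt1a6b: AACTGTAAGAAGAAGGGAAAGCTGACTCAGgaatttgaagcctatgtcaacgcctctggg
Ugt1a7c: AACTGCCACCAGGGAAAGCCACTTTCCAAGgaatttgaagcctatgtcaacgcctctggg
Ugt1a9: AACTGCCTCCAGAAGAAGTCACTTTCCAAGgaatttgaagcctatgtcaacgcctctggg
From the second exon on, 1311 bases were identical in all 9 members, which is 58.9% of the Ugt1a1 transcript. Ugt1a6a and Ugt1a6b were alike in their first exon too, with 905 of 938 aligned bases identical, while the first exons of Ugt1a1 and Ugt1a6a matched at 548 of 863. Every 50-base window of Ugt1a6a also occurs in an annotated transcript of Ugt1a7c, and 80.7% of those of Ugt1a6b do. Beside the Ugt1a7c transcript shown above, the annotation thus gives that gene a transcript that also holds the first-exon sequence of Ugt1a6a. The expected counts divide such reads by an estimate, and all 9 Ugt1a members had values that were not whole, as had Gstm5, Gstt3 and Gstz1. Outside the locus, the members that shared the most 50-base windows with another were Ugt2a2 (69.3%) and Ugt2a1 (68.4%), Gstp2 (64.3%) and Gstp1 (62.3%), and Sult2a2 (62.1%). The values of these genes are uncertain where reads could go to either copy.

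In WT mice, most conjugation genes were higher in liver than in fat, and the UGTs differed most in their summed level. UGT transcripts together stood at 5988 ± 535 CPM in WT liver and 123.5 ± 12.1 CPM in WT fat (SD, n = 5 each), a ratio of 48.5 between the means. SULT transcripts stood at 2451 ± 801 against 251 ± 62.6 CPM, a ratio of 9.78, and GST transcripts at 4393 ± 524 against 1247 ± 273 CPM, a ratio of 3.52. Of the 46 members tested, 41 were called higher in liver and 5 lower, at an adjusted p under 0.05 by edgeR's quasi-likelihood test. Among all 14739 genes tested, 35.9% were called higher in liver and 38.4% lower, or 74.3% in either direction, so that a call was common and the direction was more one-sided among the members than among all genes. The median log2 difference was 9.38 over the 16 UGTs tested, 9.29 over the 10 SULTs and 1.66 over the 20 GSTs, beside -0.04 over all genes. The other 18 members did not pass the filter on low counts, and Sult6b2, Ugt2a1 and Ugt2a2 had no count in any library. In bulk tissue, fewer cells of a type and less RNA per cell cannot be told apart.

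**Figure D1:**
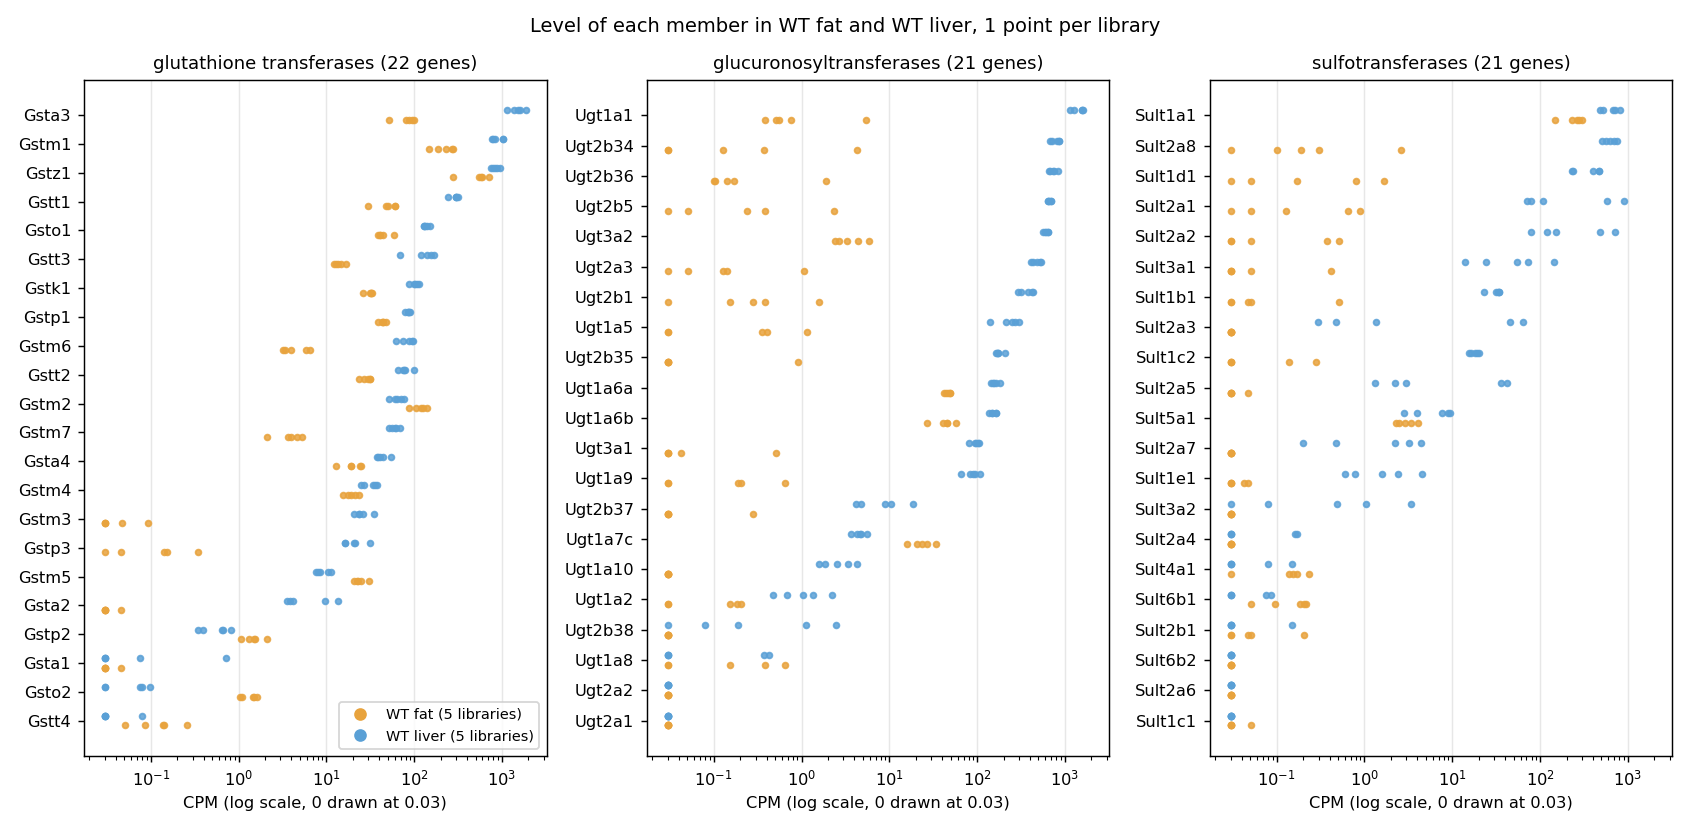
Level of each of the 64 members in the 5 WT fat (orange) and 5 WT liver (blue) libraries, in CPM on a log axis, 1 point per library, ordered by the WT liver mean within each family; a level of 0 is drawn at the left edge. Most UGTs and SULTs with counts lie far to the right in liver, while many GSTs lie closer to their fat level and Gstm2, Gstm5, Ugt1a7c, Gstp2 and Gsto2 lie higher in fat.

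Among the UGTs, Ugt1a1, which conjugates bilirubin, had the highest level per length in WT liver, at 643 CPM per kb, followed by Ugt2b36 with 386, Ugt2b5 with 358 and Ugt3a2 with 262 CPM per kb. The Ugt2b enzymes act on steroids and other lipids, and Ugt3a2 belongs to a class that uses sugars other than glucuronic acid. Ugt1a1 held 1594, 1255, 1136, 1582 and 1585 CPM in the WT liver libraries and 0.511, 0.385, 0.559, 5.44 and 0.757 CPM in the WT fat libraries. Every liver library stood above every fat library, and the highest fat value was that of WT fat 4, the library with the most Alb. The liver to fat ratio of Ugt1a1 was 918 (95% interval 255 to 3306, adjusted p = 5.77e-07). Over all 10 libraries, the largest fitted ratio of a UGT was that of Ugt2a3, at 1626 (652 to 4056), with 415 to 534 CPM in liver and at most 1.06 CPM in fat. Ugt2b36 and Ugt2b5 followed, at 1457 (482 to 4398) and 1057 (313 to 3574), and Ugt2b35 and Ugt2b34 stood at 895 and 793. The size and the order of these ratios rested on WT fat 4. Without it the log2 ratio went from 10.67 to 12.34 for Ugt2a3, from 10.51 to 12.35 for Ugt2b36, from 10.05 to 11.80 for Ugt2b5, from 9.63 to 12.45 for Ugt2b34 and from 9.84 to 11.32 for Ugt1a1, so that Ugt2a3 no longer led. Ugt2b35 was at 0.923 CPM in WT fat 4 and at 0 in the other 4 WT fat libraries, so no ratio is given without that library. Ugt1a10 had no count in WT fat, and its level of 2.71 CPM in liver was at least 95.4-fold higher, taking 3 counts over the 5 fat libraries as the limit.

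The UGT transcripts of fat came mainly from the Ugt1a locus, whose 9 members together held 117 ± 8.28 CPM in WT fat. Ugt1a6a, whose enzyme conjugates small phenols, held 20.2 CPM per kb in WT fat, its near copy Ugt1a6b 18.9, Ugt1a7c 7.37 and, from another locus, Ugt3a2 1.60 CPM per kb. Ugt1a6a stood at 46.4 ± 3.18 CPM in WT fat and 159.9 ± 15.2 CPM in WT liver, a ratio of 3.43 (2.98 to 3.93). Ugt1a7c was the one UGT called higher in fat, with 15.9, 20.5, 34.3, 23.8 and 27.1 CPM in WT fat and 5.53, 4.64, 3.65, 4.34 and 4.71 CPM in WT liver. The WT fat and WT liver libraries did not overlap, as was so for 62.4% of all genes, and the liver to fat ratio was 0.187 (0.138 to 0.255) (adjusted p = 4.97e-07). Since the counts of Ugt1a6a, Ugt1a6b and Ugt1a7c divide shared reads, the sum of Ugt1a6a and Ugt1a6b was also taken. It gave a liver to fat ratio of 3.47. That sum leaves out Ugt1a7c, of whose 3253 windows of 50 bases 2248 also occur in Ugt1a6a. How far the division of reads enters the ratio of Ugt1a7c was not tested.

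Among the SULTs, one gene was abundant in both tissues and the rest nearly absent from fat. Sult1a1, the phenol sulfotransferase, accounted for most SULT transcripts of fat, with 267, 234, 147, 303 and 276 CPM in WT fat, against 820.0, 516, 485, 708 and 682 CPM in WT liver. All liver libraries lay above all fat libraries, at a ratio of 2.60 (1.87 to 3.62). Next in fat came Sult5a1, a member of little known substrate, at 3.02 ± 0.713 CPM, and every other SULT had a mean under 1 CPM there. In liver, Sult1a1 held 469 CPM per kb, and the hydroxysteroid and bile acid sulfotransferases Sult2a2, Sult2a1 and Sult2a8 held 419, 338 and 293 CPM per kb. The liver to fat ratios were 1563 (356 to 6861) for Sult2a2, 959 (171 to 5372) for Sult2a1, 941 (264 to 3352) for Sult2a8 and 988 (86.7 to 11247) for Sult2a5. Single libraries moved these too. Without WT fat 4 the log2 ratio went from 10.61 to 11.38 for Sult2a2 and from 9.88 to 11.91 for Sult2a8, and that of Sult2a1, at 9.91, was 9.18 without WT liver 1 and 10.60 without WT fat 5. Sult2a5 was at 0 in 4 of the 5 WT fat libraries and at 0.0473 CPM in WT fat 5, on which its ratio rests, and its log2 ratio of 9.95 was 9.30 without WT liver 1. Sult2a3 had no count in WT fat and a mean of 22.2 CPM in WT liver, at least 781-fold higher. Sult1c1, Sult2a4, Sult2a6, Sult2b1, Sult4a1 and Sult6b1 held means under 0.2 CPM in all 4 groups.

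The GSTs were the family with the most members at a level in both tissues. In WT fat, Gstz1, the maleylacetoacetate isomerase of tyrosine breakdown, held 326 CPM per kb, Gstm1 172, Gstm2 109 and Gsta3 56.5 CPM per kb. In WT liver Gsta3 led with 1021 CPM per kb, followed by Gstm1 with 691, Gstz1 with 508 and Gstt1 with 264 CPM per kb. Gsta3, an alpha class enzyme, held 51.1 to 99.2 CPM in fat and 1132 to 1854 CPM in liver, a ratio of 18.0 (12.5 to 25.8). Gstz1 had the smallest ratio of the members called higher in liver, with 711, 592, 277, 571 and 549 CPM in WT fat and 942, 875, 753, 842 and 793 CPM in WT liver. Its libraries did not overlap, and its ratio was 1.55 (1.103 to 2.17) (adjusted p = 0.0231). These tissue ratios are relative to TMM scaling: with plain library sizes the median over all genes moved from -0.04 to -0.97 on the log2 scale, a shift larger than the 0.63 of Gstz1 and the 0.69 of Gstm4.

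The mu class of GSTs, clustered at chr3:107895821-108044894 (GRCm38), split between the tissues. Gstm3 held 20.7 to 35.3 CPM in WT liver and at most 0.0923 CPM in WT fat (ratio 713 (401 to 1267)), and Gstm6 and Gstm7 had ratios of 17.8 and 15.2. Gstm2 went the other way, with 139, 118, 88.5, 104 and 127 CPM in WT fat and 70.0, 77.6, 64.0, 51.9 and 61.3 CPM in WT liver. Gstm5 did so too, with 20.5 to 30.7 CPM in fat and 7.70 to 11.4 CPM in liver. The fat and liver libraries did not overlap for either gene, at liver to fat ratios of 0.559 (0.453 to 0.690) for Gstm2 and 0.376 (0.302 to 0.469) for Gstm5. A pair of low genes completed the members called higher in fat: Gsto2, an omega class enzyme, at 1.34 ± 0.256 against 0.0507 ± 0.0471 CPM, and Gstp2, a pi class enzyme, at 1.51 ± 0.388 against 0.572 ± 0.1998 CPM. Gstp1, which shares 481 windows of 50 bases with Gstp2, went toward liver, with 43.6 ± 3.21 CPM in fat and 84.7 ± 4.395 CPM in liver (ratio 1.93 (1.72 to 2.16)).

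The KO libraries, which the WT comparison did not use, gave the same direction for each member called in both genotypes. Of 48 members tested, 40 were called higher in KO liver than in KO fat and 4 lower, where 35.6% and 38.8% of the 14603 genes tested were called, 74.4% in all. In all, 42 members were called in both genotypes, of 46 called in WT and 44 called in KO, and all 42 had the same direction. Gstm1, Gstm2, Gstm4 and Gsta4 were called in WT and not in KO, with KO liver to KO fat ratios of 1.74 (0.672 to 4.53), 0.674 (0.412 to 1.105), 1.52 (0.947 to 2.44) and 0.678 (0.199 to 2.30) (adjusted p = 0.261, 0.131, 0.0977 and 0.537, edgeR). For Gsta4 the estimate was on the other side of 1, beside 2.16 (1.67 to 2.79) in WT. In KO fat these estimates include KO fat 2, in which Gstm1, Gstm4 and Gsta4 were far above the other fat libraries, and without that library 47 members were called.

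The promoters of the members were searched for short letter patterns, since the tissue difference was shared by most of them. RefSeq windows from 250 bases before to 50 after the start (GRCm38.p6) were matched for 56 of the 64 members, and 6 patterns were searched on both strands. GTTAAT, one arm of the palindromic site of the hepatic factor HNF1, occurred in 14 of 56 members (25.0%) and in 8.24% of 27025 genes. The members were Gsta3, Sult1a1, Sult1d1, Sult2a3, Sult2a4, Sult2a5, Sult2a6, Sult3a2, Ugt1a1, Ugt1a6a, Ugt1a9, Ugt1a10, Ugt2a3 and Ugt3a1. Of these, Sult2a4 and Sult2a6 had hardly any counts in either tissue, and Ugt1a6a had the highest level per length of the UGTs in WT fat. Whether matches went with the level in liver was not tested. AGTCCA, a short form of the site of HNF4, occurred in 17 members (30.4%) and 16.0% of genes. These members included Ugt1a7c, which was called higher in fat, and Sult2b1 and Sult6b1, which had hardly any counts in either tissue. The longer CAAAGTCCA, which contains AGTCCA, occurred in 1 member, Sult1b1, and 0.555% of genes. The core of the antioxidant response element, TGACNNNGC, occurred in 3 members (Gsta3, Gstm5 and Gstm7) and 14.0% of genes, and GCGTG, the core bound by the aryl hydrocarbon receptor, in 11 members (19.6%) and 35.2% of genes. The spaced form, GTTAAT followed by any 2 bases and TTAA, occurred in Ugt2a3 and Ugt3a1 and in 0.170% of genes. A match is a run of letters and not a measured binding site, and near copies can share their promoters' letters. The 150 bases before the start are shown for Gsta3 and Ugt1a1, the GST and UGT with the highest level per length in WT liver, and for the pair with the spaced form. Matches to the HNF1 patterns and the antioxidant core are in capitals, 5′ to 3′ on the gene's strand, at chr1:21240435-21240584 (plus) for Gsta3, chr1:88211809-88211958 (plus) for Ugt1a1, chr5:87337196-87337345 (minus) for Ugt2a3 and chr15:9279679-9279828 (plus) for Ugt3a1.
Gsta3: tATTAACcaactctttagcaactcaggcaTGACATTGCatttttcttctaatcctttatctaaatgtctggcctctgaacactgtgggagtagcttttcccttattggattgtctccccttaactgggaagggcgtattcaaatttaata
Ugt1a1: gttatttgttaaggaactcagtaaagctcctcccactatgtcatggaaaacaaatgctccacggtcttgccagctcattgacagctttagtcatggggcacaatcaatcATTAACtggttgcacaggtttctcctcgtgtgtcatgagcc
Ugt2a3: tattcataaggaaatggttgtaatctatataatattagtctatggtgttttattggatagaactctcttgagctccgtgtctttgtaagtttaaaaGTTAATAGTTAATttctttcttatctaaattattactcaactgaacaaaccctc
Ugt3a1: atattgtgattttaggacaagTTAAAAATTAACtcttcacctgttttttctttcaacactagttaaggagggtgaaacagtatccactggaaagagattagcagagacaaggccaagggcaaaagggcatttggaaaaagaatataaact

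The comparison of KO with WT liver addresses whether the conjugation genes of the liver differ with the PKCε-deficient genotype. No member passed the threshold: of 49 tested, 0 were called by edgeR, where 1 of 13298 genes (0.00752%) was, and 9 had an unadjusted p under 0.05 (all genes: 13.1%). All 9 were higher in KO, where 6.56% of all genes were higher at that level. The fitted difference was above 0 for 39 of the 49 (all genes: 6651 of 13298), with a median of 0.18 on the log2 scale beside 0.00 over all genes. By family the median was 0.40 over 14 SULTs, 0.23 over 17 UGTs and 0.07 over 18 GSTs. The members share libraries and, in part, reads and are not independent, so these counts describe the genes and are no test. No member had KO and WT libraries that did not overlap, where 2.84% of genes had. Without WT liver 2 and WT liver 4, the libraries with the most Acta1, 34 of 50 fitted differences were above 0 and 4 had an unadjusted p under 0.05, and without KO liver 5 the latter count was 5.

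Sult1c2, a cytosolic sulfotransferase of phenolic substrates, had the smallest p of any member. It held 18.2, 15.6, 18.9, 16.4 and 19.9 CPM in the WT liver libraries and 19.6, 28.1, 28.2, 27.6 and 26.7 CPM in the KO liver libraries. KO liver 1 lay within the WT range, and the other 4 KO libraries lay above it. The KO to WT ratio was 1.45 (1.22 to 1.74), with an adjusted p of 0.188 by edgeR. DESeq2, which called 1.03% of genes here, called Sult1c2 (adjusted p = 0.0184) and no other member, and limma-voom, with 0.0226% of genes called, called none.

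**Figure D2:**
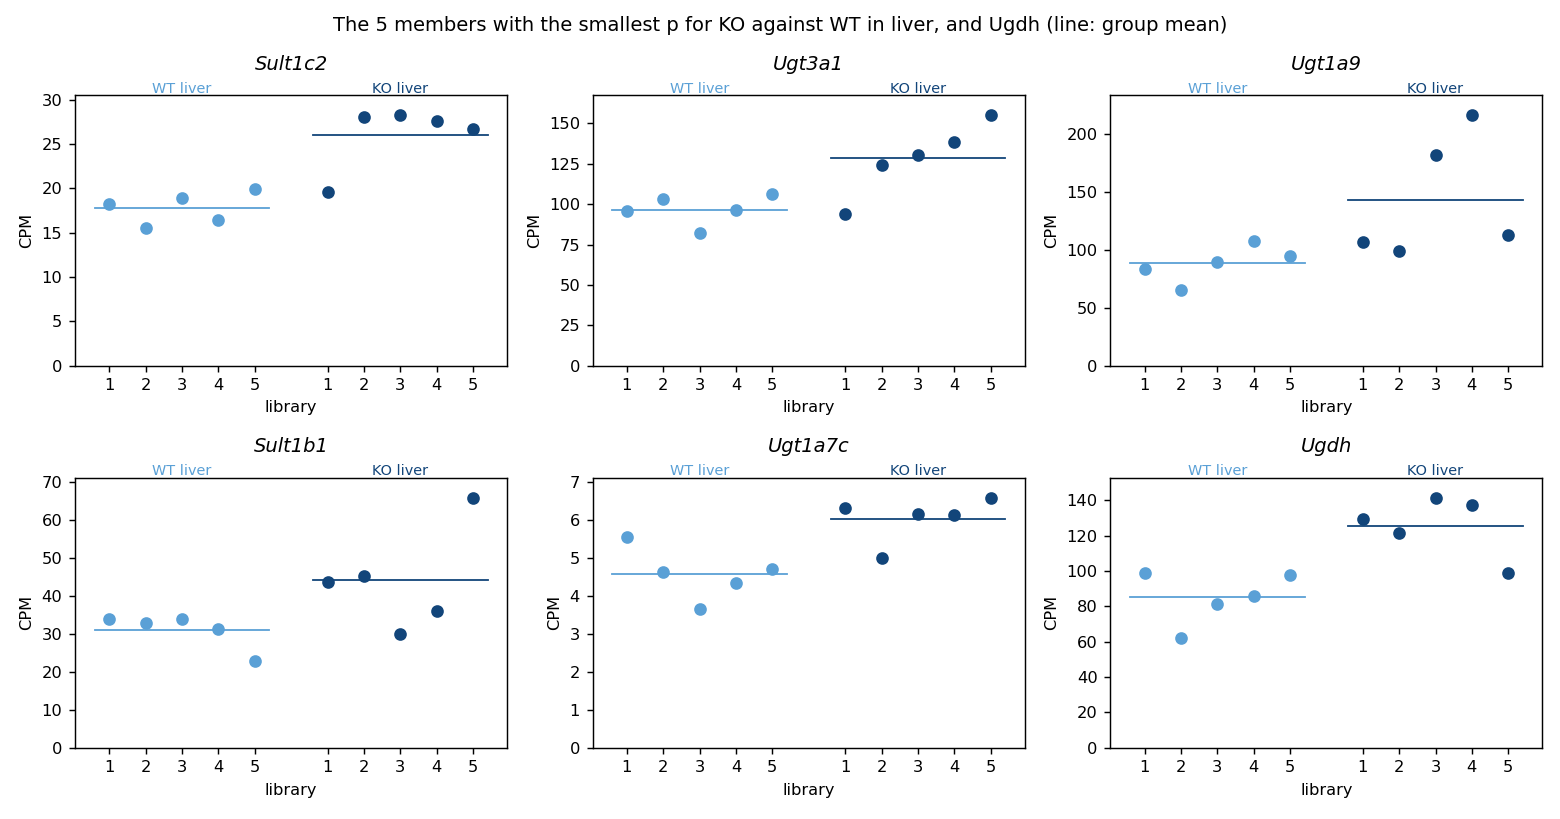
Level in CPM (axis from 0) of the 5 members with the smallest p in liver and of Ugdh, in the 5 WT liver (light) and 5 KO liver (dark) libraries, 1 point per library, with a line at each group mean. In each panel the KO mean is above the WT mean and at least 1 KO library lies within the WT range.

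The next UGTs by p were Ugt3a1, which transfers N-acetylglucosamine, and Ugt1a9 and Ugt1a7c of the Ugt1a locus. Ugt3a1 held 95.7, 103, 81.9, 96.1 and 106 CPM in WT liver and 93.6, 124, 130.4, 138 and 155 CPM in KO liver, so that KO liver 1 was again within the WT range and the other 4 were above it (ratio 1.32 (1.102 to 1.58), adjusted p = 0.235). Ugt1a9 held 83.7, 65.5, 90.0, 108 and 94.6 CPM in WT liver and 106, 99.2, 182, 216 and 113 CPM in KO liver. Its high values were those of KO liver 3 and KO liver 4, while KO liver 1 and KO liver 2 lay within the WT range (ratio 1.61 (1.14 to 2.28), adjusted p = 0.261). Ugt1a7c, at 4.57 ± 0.682 CPM in WT and 6.03 ± 0.607 CPM in KO, had a ratio of 1.31 (1.04 to 1.64). For the locus as a whole, the ratio of the sums over all 9 Ugt1a members was 1.05, and Ugt1a1 held 1431 ± 219 CPM in WT and 1426 ± 247 CPM in KO (ratio 0.992 (0.803 to 1.22)). Ugt2b36 and Ugt2b1 had ratios of 1.17 (1.01 to 1.36) and 1.23 (1.01 to 1.504), and Ugt2b35 stood at 1.23 (0.948 to 1.60).

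Among the other sulfotransferases, Sult1b1, which acts on thyroid hormones and phenols, held 33.9, 32.97, 34.0, 31.4 and 22.8 CPM in WT liver and 43.7, 45.2, 29.96, 36.1 and 65.9 CPM in KO liver. KO liver 3 lay below 4 of the WT libraries and the other KO libraries above all of them (ratio 1.42 (1.06 to 1.89), adjusted p = 0.308). Sult2a8, a bile acid sulfotransferase of mouse liver, held 629 ± 101 CPM in WT and 854 ± 241 CPM in KO, with overlapping ranges of 510.0 to 756 and 592 to 1180.4 CPM (ratio 1.35 (1.02 to 1.78)). Among the GSTs, Gstk1, the kappa class enzyme of mitochondria and peroxisomes, held 102 ± 9.72 CPM in WT and 121 ± 16.2 CPM in KO (ratio 1.18 (1.01 to 1.38), adjusted p = 0.354). Gstm4 and Gstz1 came next, at 1.22 (0.971 to 1.54) and 1.12 (0.978 to 1.29). Several of the most abundant members had ratios near 1, among them Gsta3 at 1.05 (0.870 to 1.27), Gstm1 at 0.986 (0.806 to 1.21) and Sult1a1 at 0.987 (0.799 to 1.22). Marker sums had overlapping ranges in the liver groups: that of 8 macrophage genes was 542 to 1038 CPM in WT and 443 to 598 CPM in KO. That of 8 hepatocyte genes was 178491 to 202261 CPM in WT and 147729 to 194154 CPM in KO. The part of these cell types in the members' levels was not tested.

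**Figure D3:**
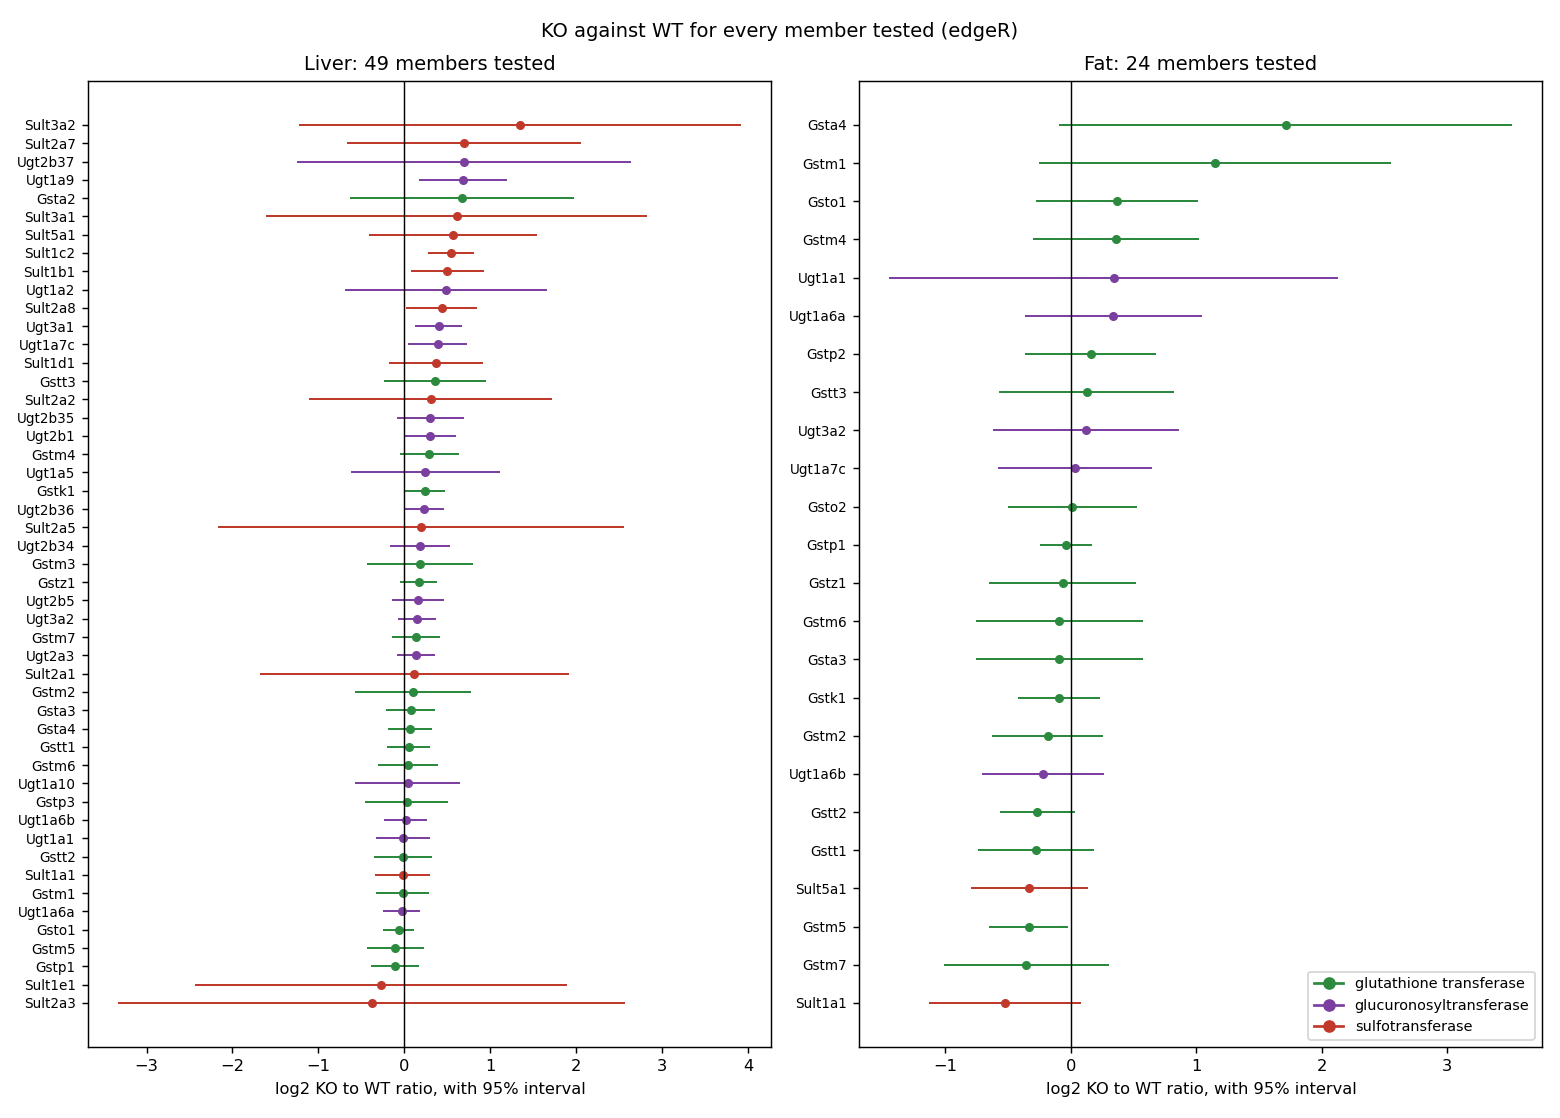
Log2 KO to WT ratio with its 95% interval from edgeR for the 49 members tested in liver (left) and the 24 tested in fat (right), coloured by family and ordered by size. In liver 39 of 49 points lie right of 0, most with intervals that cross it; in fat 11 of 24 do, and Gsta4 and Gstm1 lie farthest to the right with wide intervals.

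The enzymes that supply the conjugation donors were examined with a list of 16 genes. In liver 15 were tested and 0 were called, 4 were higher and 3 lower at an unadjusted p under 0.05 (all genes: 13.1% in either direction, 6.56% higher), and the list's median was 0.14 on the log2 scale beside 0.00 over all genes. Ugdh, which makes UDP-glucuronic acid, the donor of the UGTs, held 99.1, 61.8, 81.5, 85.9 and 97.8 CPM in WT liver and 129, 121, 141, 137 and 99.1 CPM in KO liver. KO liver 5 lay at the upper end of the WT range and the other 4 were above it (ratio 1.47 (1.21 to 1.77), adjusted p = 0.209). Ugp2, which makes the UDP-glucose that Ugdh oxidises, had a ratio of 1.25 (1.02 to 1.52), and its WT libraries 1 and 5, with 957 and 897 CPM, lay within the KO range of 888 to 969 CPM. On the glutathione side, Gss, glutathione synthetase, stood at 0.801 (0.657 to 0.9753), and Chac1, which breaks glutathione down, at 0.317 (0.146 to 0.686), with 5.69 to 33.9 CPM in WT liver and 3.33 to 6.72 CPM in KO liver.

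The other 5 lists of the pathway (further glutathione enzymes, other conjugation and hydrolysis enzymes, the Nrf2 pathway, xenobiotic and hepatic regulators, and transporters) likewise held 0 called genes in either tissue. In liver each of these lists held at most 1 gene higher and 1 lower at an unadjusted p under 0.05, of 8 to 15 tested. Among all genes 13.1% were at that level in either direction. The genes are thus named for their p and are no result about the lists. They included Abcb11, Gstcd and Nat2, higher in KO, and Maff, Nr1i2 and Gusb, lower. Abcb11, the canalicular bile salt exporter, stood at 1.26 (1.083 to 1.47) (adjusted p = 0.235), and Nr1i2, the xenobiotic receptor PXR, at 0.782 (0.631 to 0.969) (adjusted p = 0.331). In fat each list, the donor list included, held at most 1 gene at an unadjusted p under 0.05, of 8 to 15 tested, where 7.13% of all genes were. These were Por, the reductase that serves cytochromes P450, at 0.717 (0.570 to 0.901), Ephx2, the soluble epoxide hydrolase, at 0.687 (0.503 to 0.940), and, from the donor list, Chac1 at 0.680 (0.487 to 0.949). All were lower in KO with an adjusted p of 0.687 by edgeR.

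Several sulfotransferases varied widely over the 10 liver libraries of both genotypes. Of 49 members with a mean of at least 1 CPM over the 10 liver libraries, 12 (24.5%) had a highest library at least 5 times the lowest, where 4.08% of 12926 genes at that level had. They were Sult1e1, Sult2a1, Sult2a2, Sult2a3, Sult2a5, Sult2a7, Sult3a1, Sult3a2 and Sult5a1 among the SULTs, with Gsta2, Ugt1a2 and Ugt2b37. Sult5a1 passed only across the genotypes, with 2.81 to 9.36 CPM in WT liver and 4.63 to 15.5 CPM in KO liver. Sult2a1 held 896, 109, 70.2, 79.1 and 572 CPM in WT liver and 359, 385, 632, 237 and 264 CPM in KO liver. WT liver 1 and WT liver 5 were thus far above the other 3 WT libraries, and the KO libraries were more even. Sult2a3 showed the same WT order more steeply, with 63.8, 1.35, 0.296, 0.471 and 45.2 CPM in WT liver and 13.2, 13.2, 42.5, 14.8 and 2.31 CPM in KO liver, and WT liver 1 was also the highest library for Sult2a2 (712 CPM) and Sult2a5 (42.2 CPM). The Sult2a genes lie on chromosome 7, and Sult2a1 and Sult2a2 share 286 windows of 50 bases, so part of their counts could be divided between them.

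**Figure D4:**
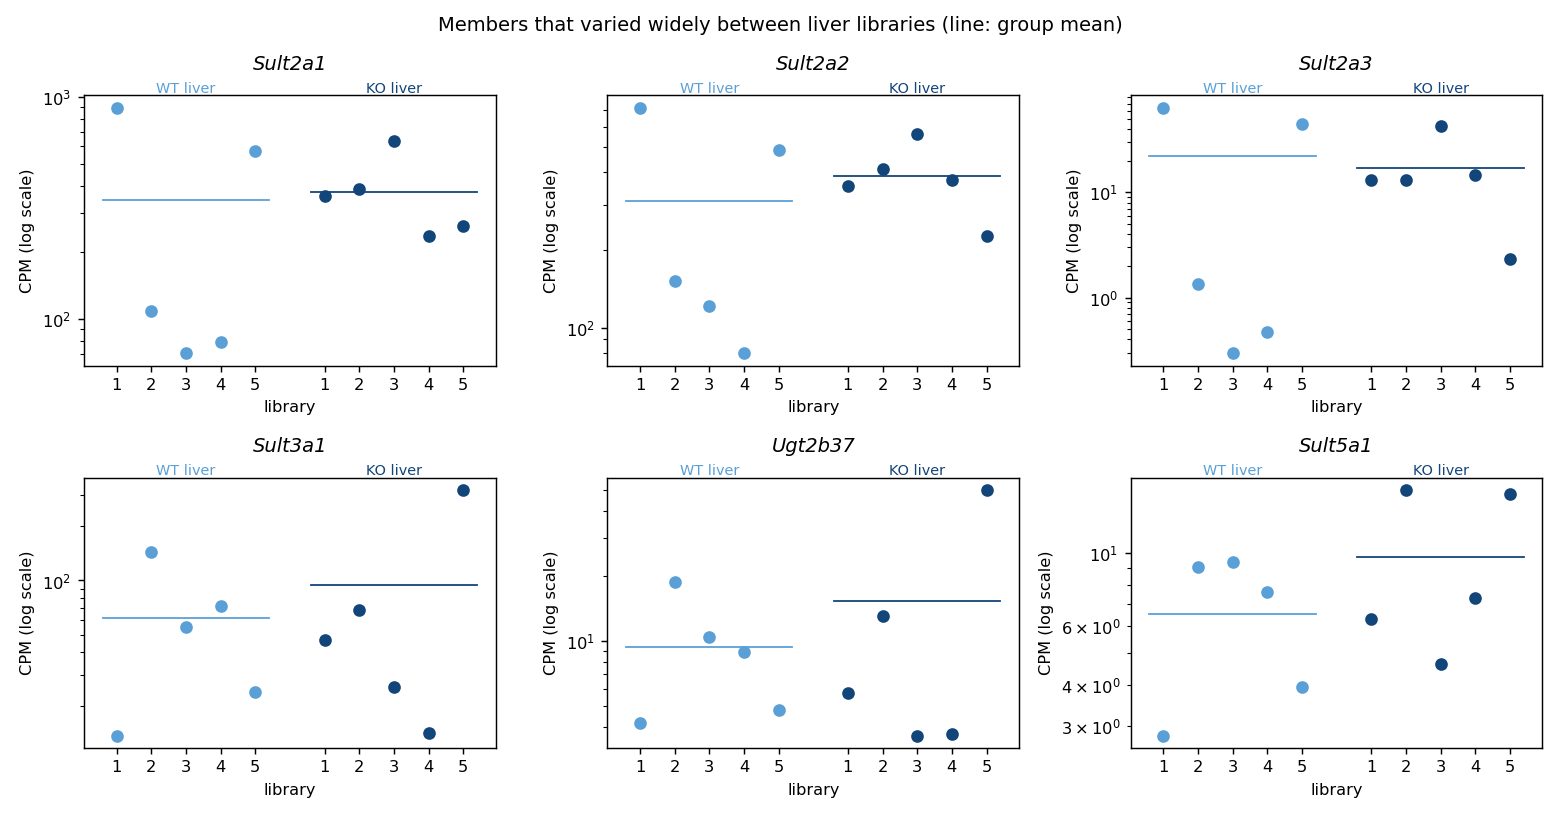
Level in CPM (log axes) of 6 members in the 5 WT liver (light) and 5 KO liver (dark) libraries, 1 point per library, with a line at each group mean. The upper row (Sult2a1, Sult2a2, Sult2a3) is high in WT liver 1, WT liver 5 and KO liver 3, libraries that lie low in the lower row (Sult3a1, Ugt2b37, Sult5a1), where KO liver 5 is among the highest.

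Other members were highest in other libraries. Sult3a1, an amine sulfotransferase, held 13.8, 145, 55.3, 72.5 and 24.0 CPM in WT liver and 46.6, 68.3, 25.7, 14.3 and 318 CPM in KO liver. Ugt2b37, a UGT on chromosome 5, held 4.17, 18.8, 10.4, 8.86 and 4.79 CPM in WT liver and 5.73, 13.0, 3.64, 3.69 and 50.2 CPM in KO liver. KO liver 5 was the highest library for Sult3a1, Sult3a2 (9.04 CPM) and Ugt2b37, and the lowest KO library for Sult2a3, Sult2a5 (2.46 CPM) and Gsta2 (2.10 CPM, against 9.45 to 19.8 CPM in the other KO libraries). WT liver 1, the highest library for Sult2a1, Sult2a2, Sult2a3 and Sult2a5, was the lowest of all 10 for Sult3a1 and Sult5a1. With this spread, the KO to WT ratios were imprecise: 1.085 (0.315 to 3.73) for Sult2a1 and 1.52 (0.330 to 7.04) for Sult3a1. Sult1e1, the estrogen sulfotransferase, was high in KO liver 1 (6.30 CPM) and WT liver 1 (4.49 CPM) and at most 2.395 CPM in the rest.

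In fat, no difference between KO and WT reached the threshold. Of 24 members tested, 17 GSTs, 5 UGTs and 2 SULTs, 0 were called by edgeR, DESeq2 or limma-voom, where edgeR called 0 of 14707 genes (0.0%), DESeq2 0.0884% and limma-voom 0.0%. Gstm5 alone had an unadjusted p under 0.05 by edgeR, where 7.13% of all genes did. The fitted difference was above 0 for 11 members and below 0 for 13 (all genes: 7371 of 14707 above 0), with a median of -0.05, and no member had KO and WT libraries without overlap, where 1.26% of genes had. Gstm5, a mu class GST, held 20.5, 22.3, 25.1, 23.2 and 30.7 CPM in WT fat and 24.0, 16.5, 20.6, 16.3 and 19.1 CPM in KO fat. KO fat 2, KO fat 4 and KO fat 5 lay below all WT libraries, and KO fat 1 and KO fat 3 were among them (ratio 0.792 (0.640 to 0.980), adjusted p = 0.687). The theta class genes Gstt2 and Gstt1 had ratios of 0.830 (0.678 to 1.02) and 0.824 (0.601 to 1.13), Gstm7 0.782 (0.500 to 1.23), Ugt1a6b 0.858 (0.616 to 1.196) and Sult5a1 0.795 (0.579 to 1.09).

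Sult1a1, the main sulfotransferase of fat, held 251.9, 193, 97.0, 126 and 186 CPM in KO fat, against the 147 to 303 CPM of WT fat. KO fat 3 and KO fat 4 lay below all WT libraries and the other 3 overlapped with them, and the ratio of 0.696 had an interval of 0.460 to 1.05 (adjusted p = 0.688). Its lowest libraries in each genotype, WT fat 3 and KO fat 3, were also those with the highest macrophage sums of their group, at 1419 and 928 CPM against 298 to 866 CPM in the rest. The adipocyte sum was 9233 to 14534 CPM in KO fat and 11428 to 17591 CPM in WT fat. The part of these cell types in the level of Sult1a1 was not tested.

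The largest KO to WT ratios in fat came from 1 library. KO fat 2 was the highest of the 10 fat libraries for 16 members, 10 of them at 1 CPM or more, of the 56 members with counts in fat, and WT fat 4 was the highest for 15, 8 of them at 1 CPM or more. In KO fat 2, 8 members at 1 CPM or more there were at least 2-fold above a median above 0 in the other 9 libraries. These counts were not set against all genes, so whether they are particular to the members was not tested. Of 25 members with a mean of at least 1 CPM in fat, 4 (16.0%) had a highest library at least 5 times the lowest. Among all 13784 genes at that level, 10.5% had. The members were Gsta4, Gstm1 and Ugt2b34, highest in KO fat 2, and Ugt1a1, highest in WT fat 4. Gsta4, which conjugates aldehydes from oxidised lipids, held 24.6, 19.1, 12.8, 18.9 and 24.0 CPM in WT fat and 19.0, 253, 15.8, 18.0 and 20.84 CPM in KO fat. Gstm1 held 272, 231, 147, 186 and 275 CPM in WT fat and 266, 1617, 165, 189 and 234 CPM in KO fat. For both genes the other 4 KO libraries lay within the WT range. Ugt1a6a reached 125 CPM in that library against 33.9 to 49.7 CPM in the others, Gsto1 114 against 38.4 to 59.3 CPM, and Gstm4 49.9 against 15.6 to 23.8 CPM. Gstt3 stood at 31.8 against 9.36 to 16.7 CPM, and Ugt2b34 at 26.7 against at most 4.29 CPM.

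**Figure D5:**
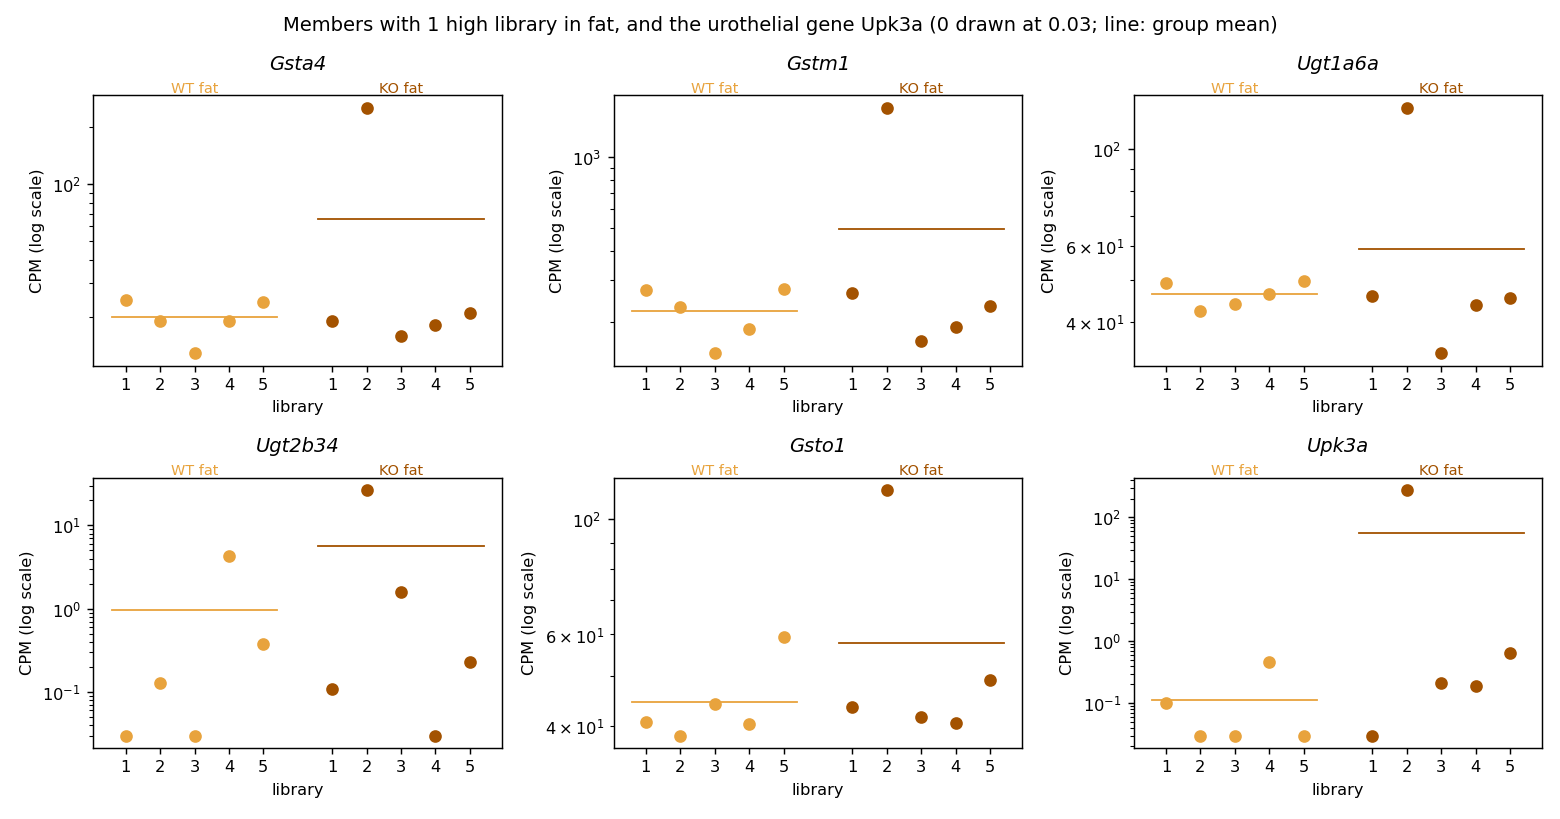
Level in CPM (log axes; 0 is drawn at the lower edge) of Gsta4, Gstm1, Ugt1a6a, Ugt2b34, Gsto1 and the urothelial gene Upk3a in the 5 WT fat (light) and 5 KO fat (dark) libraries, 1 point per library, with a line at each group mean. KO fat 2 is the highest point in every panel, and it alone lifts the KO means of Gsta4 and Gstm1 above the other 9 libraries.

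The ratios of Gsta4 and Gstm1 rested on that library. They were 3.27 (0.941 to 11.4) and 2.21 (0.843 to 5.82) over all 10 libraries, and 0.926 (0.702 to 1.22) and 0.961 (0.692 to 1.34) without KO fat 2. Those of Gsto1, Gstm4 and Ugt1a6a went from 1.29, 1.28 and 1.26 to 0.981, 0.968 and 0.913, and 4 of 24 fitted differences were then above 0. KO fat 2 also stood apart in urothelial markers. The sum of 8 such genes was 1519 CPM there, against 38.7 to 126 CPM in the other fat libraries. In those libraries Upk3b made up most of the sum. Upk2 was at 122.6 CPM in KO fat 2 and at 0 in 6 of the other 9. The sum of 10 genes listed for uterus, oviduct and mesothelium was 578 CPM in KO fat 2, against 29.8 to 152 CPM in the other fat libraries. A sum over that list does not tell which of these cells were present. The part of such cells in the conjugation transcripts of KO fat 2 was not tested.

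In a different pair of fat libraries, low levels of several liver-type members went with albumin. WT fat 4 and KO fat 3 had hepatocyte sums of 458 and 411 CPM, against 11.2 to 67.4 CPM in the other fat libraries. They were the 2 highest fat libraries for 9 members: Ugt1a1, Ugt2a3, Ugt2b1, Ugt2b5, Ugt2b35, Ugt2b36, Ugt3a1, Sult1d1 and Sult2a8. This count was not set against all genes. Some of the values rest on few counts, such as 0.508 and 0.372 CPM for Ugt3a1. Set against Alb in the same library, Ugt2a3 stood at 31.5 and 49.6 per 10000 of Alb in WT fat 4 and KO fat 3, and at 34.0 and 43.6 in WT and KO liver. Ugt1a1 stood at 161 and 129 against 102 and 119, and Sult2a8 at 78.0 and 115 against 44.4 and 72.5. These 3 genes are among the 9 and were thus chosen for being high in both libraries. Other liver members were lower against Alb in KO fat 3 than in KO liver: Sult2a1 stood at 1.77 against 30.3, and Sult2a2 and Ugt1a9 at 0 against 31.5 and 11.8. In WT fat 4 they stood at 19.1, 15.0 and 19.1, against 24.6, 22.1 and 6.27 in WT liver. By contrast Gstm1, a gene that fat also expresses, stood at 5523 and 5496 per 10000 of Alb in the pair and at 64.1 and 72.1 in liver. Without the pair, the median log2 difference between KO and WT fat was 0.04 over the 24 members tested, with 14 above 0.

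The direct test of whether the KO effect differed between fat and liver called 0 of 50 members and 0 of 15652 genes (0.0%) by edgeR. Among the members, 4 had an unadjusted p under 0.05, where 5.36% of genes did. These were Ugt1a10 and Gsta2, with the KO to WT ratio higher in fat, and Sult1c2 and Ugt1a9, with it higher in liver. Each was at 2.42 CPM or less in every fat library, and for Ugt1a10 all 5 WT fat libraries were at 0, so these fitted differences rest on few counts. Gsta2, Sult1c2 and Ugt1a9 had differences of 4.25, -2.26 and -2.32 on the log2 scale (adjusted p = 0.903 each, edgeR), and Sult1b1, also low in fat, -2.26. Single fat libraries moved them: without KO fat 2, which alone held Gsta2 above 0.108 CPM in fat, the difference of Gsta2 was 0.30 and that of Sult1c2 -4.14, and without WT fat 4 that of Gsta2 was 5.39, that of Ugt1a9 -1.26 and that of Sult1b1 -0.21. That of Sult1c2 was -1.15 without WT fat 5, and without KO fat 1 those of Ugt1a9 and Sult1b1 were -2.92 and -3.18. For members with a level in both tissues the estimates were smaller, as for Gstk1 at -0.34 and Sult5a1 at -0.90, while Gsta4, at 1.65, included KO fat 2. The tissue comparisons, the genotype comparisons and this test share libraries and are not independent of each other.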

How the data were processed

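The 20 libraries, 5 per group, came from RNA extracted with a Qiagen RNeasy kit and prepared as stranded mRNA libraries with an Illumina TruSeq kit, per the labels' protocols. For each gene the authors deposited an expected count, an estimated count that need not be whole. Tools named in the submitters' processing notes are RSEM 1.2.12, STAR 2.4.0d, Trim Galore 0.2.8 and DESeq2, on the build GRCm38; for settings, strand option and annotation of the counting, the sources used here give nothing. From 3.95% to 5.80% of each library's values had a fractional part, and every value was rounded. Reads shared by near copies are divided by an estimate, and PCR copies are counted.

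Genes were tested with edgeR 4.0.16 (quasi-likelihood, TMM, its filter at a count of 10) in R 4.3.3, separately for KO against WT in fat and in liver, liver against fat in WT and in KO, and, over all 20 libraries, for the difference of the genotype effect between tissues. p-values were adjusted by Benjamini-Hochberg over all genes tested, and a gene was called at an adjusted p under 0.05. Intervals are 95% intervals of the fitted ratio. The tests were also run on simulated data. Of genes changed 2-fold, 63.6% were recovered for KO against WT in fat (14707 genes) and 87.0% in liver (13298 genes). Of those changed 1.5-fold, 24.3% and 51.7% were. For the difference of the genotype effect between tissues, 31.5% were recovered at 2-fold and 10% at 1.5-fold. The simulated tissues did not differ as the real ones did: WT liver against WT fat gave 124 calls there, against 10947 in the data. Many members were far lower in fat than in liver, and 40 of 64 were too low to test in fat. The rates for the difference between tissues do not describe such members. The simulations gave 115 calls in fat and 171 in liver, against 0 and 1 in the data. The adjustment is less strict where more genes are called, so these rates can overstate what would be recovered here. The least different pair of libraries had a chi-square of 15.9 per degree of freedom, so no library was counted as a repeat.

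Members were named for their level per kilobase, the smallest p in each comparison (12 per tissue for KO against WT, 8 for the difference between tissues) and the largest ratios between tissues; Sult and other members that varied widely between livers, or in single fat libraries, were chosen after their values were seen. The members, the pathway lists and the marker lists were chosen with earlier results of these data known. Alternatives were DESeq2 1.42.0, limma-voom (limma 3.58.1), other scaling and filters, all libraries in 1 fit, a replicate block and libraries left out. Same-numbered libraries correlated from -0.23 to 0.34 in their deviations, with both ends from WT fat against KO fat. For fat against liver of the same genotype the range was -0.018 to 0.158. The numbers were not taken as pairs, but these correlations cannot tell whether the tissues came from the same mice. Positions are GRCm38 (GENCODE M21), promoters RefSeq GRCm38.p6. One result of the pathway lists is not reported here.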

Additional observations from a re-analysis of the deposited data

Results flagged for a closer look

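Within groups of 5 libraries, a library was picked out when its gap to the nearest value exceeded 0.71 of the group's range (Dixon's test). Of 113 groups tested, from 37 named members, 17 held such a value. Chance gives about 1 in 20 for independent groups that were not chosen by their values. These members were chosen partly by these values and share libraries, so 17 of 113 is no test against that rate. KO fat 2 was the library picked out in 6 of the 17, with Gsta4 at 253 CPM, Gstm1 at 1617 CPM, Gstm4 at 49.9 CPM, Gsto1 at 114 CPM, Ugt1a6a at 125 CPM and Ugt2b34 at 26.7 CPM. In WT fat, Gsto1 was highest in WT fat 5 at 59.3 CPM, Ugt1a1 was highest in WT fat 4 at 5.44 CPM, and Gstk1 was lowest in WT fat 3 at 25.9 CPM.

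In WT liver, Gstt1 was lowest in WT liver 3 at 245 CPM, Sult1b1 was lowest in WT liver 5 at 22.8 CPM, and Ugt2b35 was highest in WT liver 1 at 206 CPM. In KO liver, Gstm2 was highest in KO liver 1 at 136 CPM and Sult1c2 lowest there at 19.6 CPM. Ugt1a7c was lowest in KO liver 2 at 4.99 CPM. Gsta4 was lowest in KO liver 5 at 35.5 CPM, where Ugt2b1 was highest at 571 CPM.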

How the results depend on the processing

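The counts of called members were 0 in fat, 0 in liver and 0 for the difference between tissues under every alternative except DESeq2 in liver, which called 1 member, Sult1c2. Between tissues, 41 to 53 members were called in WT and 41 to 49 in KO over all alternatives, and 46 in WT and 44 to 47 in KO with each library left out in turn. Upper quartile scaling moved the median of all genes to -0.34 in the WT tissue comparison. With the replicate number as a block, the counts were 0 in fat, 0 in liver, 0 for the difference, 46 in WT and 47 in KO.

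Directions turned in a few cases. With each library left out in turn, the log2 difference in fat ran from -0.11 to 1.96 for Gsta4, from -0.057 to 1.37 for Gstm1, from -0.028 to 0.50 for Gsto1, from -0.047 to 0.48 for Gstm4 and from -0.13 to 0.48 for Ugt1a6a, and that of Gsta4 between tissues ran from -0.18 to 1.89. Every one of these lowest values came without KO fat 2, the library with the most Upk3a. Leaving that library out of the fit between tissues was chosen after seeing the data. The difference between tissues became -0.065 for Gsta2 by limma-voom and 0.051 for Sult1b1 without the fat libraries with the most Alb, and the cause was not tested. Low counts limit most members in fat, where 40 of 64 were too low to test, beside 15 in liver.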
